A study of Mus musculus with 12 samples.

Results

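The levels of 8 genes that mark antigen-presenting and myeloid cells were followed in mouse epidermal keratinocytes. They were chosen by symbol: 3 genes of the MHC class II system (Cd74, H2-Aa and H2-Eb1), the Langerhans cell gene Cd207, the myeloid genes Tyrobp, Alox5ap and Csf1r, and the leukocyte gene Ptprc. All 8 were read from the arrays, among 11287 genes in all. RNA came from the back skin epidermis of female mice 9.5 weeks old and was hybridised to Affymetrix Mouse Exon arrays. There were 12 arrays, with 3 in each of 4 groups: CD34+ITGA6+ keratinocytes and ITGA6+ keratinocytes of wild-type (WT) mice, and both populations of K14ΔNLef1 mice. CD34 lies on the surface of stem cells in the bulge of the hair follicle, and ITGA6, the integrin α6 chain, marks basal keratinocytes. In the methods, the ITGA6+ sort was the CD34-negative part of the basal layer. In K14ΔNLef1 mice a transgene drives Lef1 that lacks its amino-terminal β-catenin binding part from the keratin 14 promoter, which is active in basal keratinocytes. The arrays of a group are labelled biological replicates, and the sources used here do not say whether each stands for 1 mouse or a pool.

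MHC class II molecules are pairs of an α and a β chain that show peptides from engulfed proteins to CD4+ T cells. In the epidermis they are carried mainly by Langerhans cells, the resident antigen-presenting cells, which sit among the basal and suprabasal keratinocytes, and keratinocytes can also make them when interferon γ is present. The class II genes share a promoter layout, the X and Y boxes, on which the factors RFX and NF-Y assemble and to which the co-activator CIITA is recruited. Langerhans cells depend on the receptor CSF1R and on its ligand interleukin 34, which keratinocytes secrete.

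Probe-set values were used as log2 intensities, and the value of a gene was the median over its probe sets. No background was measured, so each level was set against the median of all probe sets of its array, which ran from 7.35 to 7.63. Keratinocyte markers read far above that line, with a mean log2 level of 10.95 to 11.43 per array, and all 10 markers measured lay above the array median on all 12 arrays. Lef1 averaged 12.58 and 12.65 in the K14ΔNLef1 groups against 6.51 and 6.21 in WT. Cd34 averaged 11.81 and 11.40 in the CD34+ITGA6+ groups of WT and K14ΔNLef1 mice against 5.37 and 5.33 in the ITGA6+ groups, as the array titles say, although a free-text label gives the populations the other way round. Itga6 averaged 10.59 and 10.91 in the CD34+ITGA6+ groups of WT and K14ΔNLef1 mice against 11.69 and 11.60 in the ITGA6+ groups.

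Apart from H2-Eb1, the marker genes were dim in these sorts, with medians over probe sets that averaged under all array medians. H2-Eb1 had the highest mean over the 12 arrays, 7.91, above 69.2% of all genes, and Ptprc the lowest, 5.01, above 4.90%. H2-Eb1 exceeded the array median on 8 arrays, H2-Aa on 4, Tyrobp on 3, Cd74 on 2 and Alox5ap on 1. Cd207, Csf1r and Ptprc exceeded it on 0 of 12. Only H2-Aa, H2-Eb1 and Tyrobp therefore met the condition for testing, a level above the array median on at least 3 arrays. H2-Aa and Tyrobp met it through K14ΔNLef1 arrays alone, so their passing already required a difference. The other 5 genes were taken from a fit to all 11287 genes with no filter.

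The promoters of both class II chain genes are shown because their shared boxes define the family. The sequences are from RefSeq (mouse build GRCm38.p6), and promoters were read for 4 of the 8 genes, Cd74 not among them. Each sequence runs through the 200 bases before the gene start, 5′ to 3′ on the strand of the gene. Capitals mark the Y box letters CCAAT, searched on both strands and so also written ATTGG, and the letters AGCAAC, searched on both strands as the core of the X1 box.
H2-Aa, chr17:34287824-34288023, minus strand: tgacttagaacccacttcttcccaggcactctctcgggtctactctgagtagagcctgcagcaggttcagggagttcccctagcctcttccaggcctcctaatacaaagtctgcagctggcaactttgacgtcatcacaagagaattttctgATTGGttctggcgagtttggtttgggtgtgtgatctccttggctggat
H2-Eb1, chr17:34305667-34305866, plus strand: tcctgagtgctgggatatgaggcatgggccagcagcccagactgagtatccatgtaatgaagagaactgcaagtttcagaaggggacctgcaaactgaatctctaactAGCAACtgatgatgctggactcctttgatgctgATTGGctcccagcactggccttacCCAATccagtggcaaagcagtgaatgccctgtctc

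H2-Eb1 held the X1 core letters 92 to 87 bases before its start and the Y box letters 59 to 55 bases before it on the opposite strand and 35 to 31 bases before it on its own. H2-Aa held Y box letters 48 to 44 bases before its start on the opposite strand. The letters AGCAAC were not found in H2-Aa. That search took exact letters only, so it does not show that H2-Aa lacks an X box. Short motifs such as these are frequent, since CCAAT was found in 33.8% and AGCAAC in 12.2% of 32851 mouse promoter windows. Those windows reached somewhat further from the start than the sequences shown. The marked stretches are matches of letters and not sites shown to be bound.

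Within each K14ΔNLef1 group the 3 class II genes were highest on replicates 2 and 3. Cd74, the invariant chain that guides class II molecules to the compartment where peptides are loaded, read 6.88, 5.74 and 5.87 (log2) on WT CD34+ITGA6+ replicates 1 to 3 and 6.93, 7.69 and 7.82 on the K14ΔNLef1 arrays of that population. In ITGA6+ cells Cd74 read 6.04, 5.60 and 5.88 in WT and 6.23, 7.15 and 7.46 in K14ΔNLef1. The groups did not overlap in either population, but K14ΔNLef1 replicate 1 lay only just above the highest WT array in CD34+ITGA6+ cells, and WT replicate 1 stood about 1 log2 unit above its fellows. The difference between genotypes was 1.32 ± 0.36 (log2, SE; 2.50-fold) in CD34+ITGA6+ cells and 1.11 ± 0.36 (2.16-fold) in ITGA6+ cells, with limma p-values, adjusted by the Benjamini-Hochberg (BH) method, of 0.147 and 0.149 when all genes were fitted.

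H2-Aa encodes the α chain of I-A, a class II molecule of the mouse. Its levels were 7.47, 6.46 and 6.87 on WT CD34+ITGA6+ arrays and 6.95, 8.13 and 8.31 on the K14ΔNLef1 arrays of the same population. In ITGA6+ cells the WT arrays gave 6.34, 5.79 and 6.57 and the K14ΔNLef1 arrays 6.02, 7.77 and 7.86. Replicate 1 of K14ΔNLef1 thus fell within the WT range in both populations, and the genotypes overlapped. H2-Aa differed by 0.86 ± 0.47 in CD34+ITGA6+ cells (BH-adjusted p = 0.617) and by 0.98 ± 0.47 in ITGA6+ cells (BH-adjusted p = 0.339), neither past the threshold of 0.05 in limma. Those p-values are from the filtered genes, where H2-Aa stood through K14ΔNLef1 arrays alone. In the limma fit to all genes they were 0.694 and 0.437. Without K14ΔNLef1 ITGA6+ replicate 1, the lowest array of its group, the difference in ITGA6+ cells became 1.58. Its adjusted p was then 0.0424 among the filtered genes and 0.0722 among all genes.

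H2-Eb1, the β chain of the class II molecule I-E, was the brightest of the 8 genes and also the most variable. It measured 8.60, 6.22 and 7.68 in WT CD34+ITGA6+ cells, a span of 2.38 log2 units among arrays of 1 group, and 8.48, 9.51 and 8.97 in their K14ΔNLef1 counterparts. ITGA6+ cells gave 6.58, 7.66 and 7.04 in WT and 6.88, 8.98 and 8.35 in K14ΔNLef1. Both comparisons again had overlapping groups, with replicate 1 of WT high in CD34+ITGA6+ cells and replicate 1 of K14ΔNLef1 low in ITGA6+ cells. The genotype differences of 1.48 ± 0.57 (BH-adjusted p = 0.329) and 0.98 ± 0.57 (BH-adjusted p = 0.475) were not separated from the spread between arrays.

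**Figure D1:**
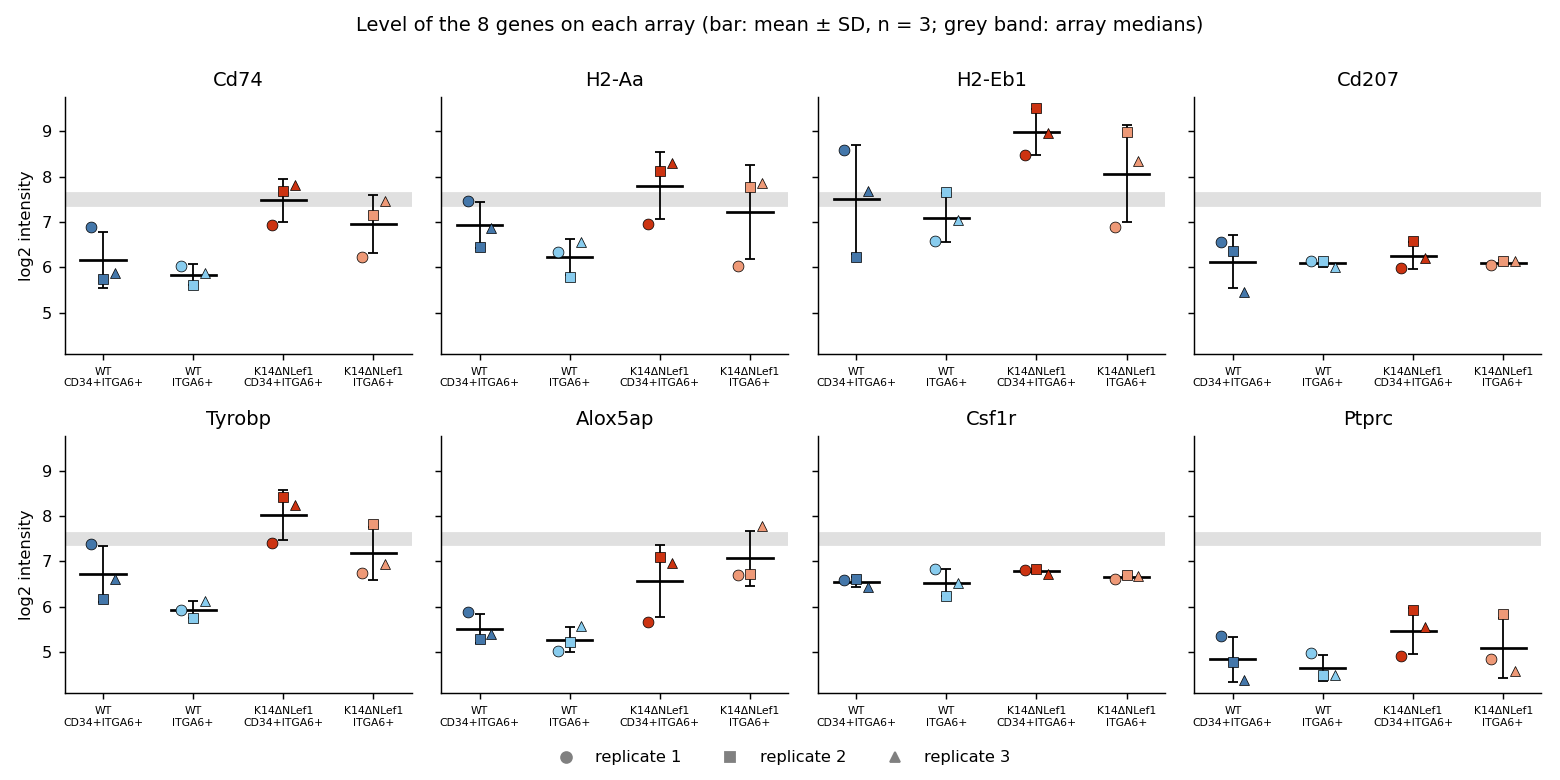
Log2 intensity (y axis) of the 8 genes on each of the 12 arrays, by group (x axis). Symbols are replicates 1 to 3, bars are the group mean ± SD (n = 3) and the grey band spans the array medians of 7.35 to 7.63; replicates 2 and 3 of both K14ΔNLef1 groups are the 4 highest arrays for Cd74 and H2-Aa, while Cd207, Csf1r and Ptprc stay under the band on all arrays.

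Of the 3 genes tested, Tyrobp had the lowest p-values between genotypes. Its product, DAP12, is an adaptor with an ITAM motif that carries the signal of activating receptors in myeloid and natural killer cells. In CD34+ITGA6+ cells Tyrobp read 7.38, 6.17 and 6.60 in WT and 7.40, 8.42 and 8.25 in K14ΔNLef1, and in ITGA6+ cells 5.93, 5.75 and 6.12 against 6.74, 7.83 and 6.95. The genotypes did not overlap in either population, although the lowest K14ΔNLef1 array and the highest WT array were nearly level in CD34+ITGA6+ cells. Differences were 1.31 ± 0.35 (2.48-fold, limma adjusted p = 0.088) and 1.24 ± 0.35 (2.36-fold, limma adjusted p = 0.0572) among the filtered genes. Since Tyrobp passed the filter through K14ΔNLef1 arrays alone, the fit to all genes is the one to read for it, as for the dimmer genes, and its adjusted p there was 0.145 and 0.0927. Among the filtered genes the adjusted p in ITGA6+ cells was 0.0451 after centring each array on its median and 0.0293 when only the 2 groups compared entered the fit, and it was 0.0365 to 0.0437 when WT replicate 1 or 2 or K14ΔNLef1 replicate 1 of the CD34+ITGA6+ arrays was left out. In CD34+ITGA6+ cells it was 0.0377 without WT replicate 1 and 0.0388 without K14ΔNLef1 replicate 1. With all genes, centring gave 0.0715 and leaving out those arrays gave 0.0602 to 0.0762 in ITGA6+ cells and 0.0645 and 0.0746 in CD34+ITGA6+ cells, none past the threshold.

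Alox5ap encodes FLAP, the membrane protein that hands arachidonic acid to 5-lipoxygenase for leukotriene synthesis. It read 5.88, 5.28 and 5.39 in WT CD34+ITGA6+ cells and 5.65, 7.09 and 6.97 in K14ΔNLef1, so that replicate 1 again lay with WT. In ITGA6+ cells the pattern was different, with 5.02, 5.23 and 5.57 in WT and 6.70, 6.72 and 7.77 in K14ΔNLef1. Here all 3 K14ΔNLef1 arrays, replicate 1 included, stood at least 1.13 log2 units above every WT array. The difference was 1.79 ± 0.37 (3.45-fold), the largest genotype difference among the 8 genes, with a limma adjusted p of 0.019 in the fit to all genes. Alox5ap lay under the filter and had no call in the filtered fit, and the adjusted p rose to 0.746 when each gene was read from its brightest probe set. Of the arrays compared, leaving out WT replicate 1, WT replicate 2 or K14ΔNLef1 replicate 3 also ended the call. In CD34+ITGA6+ cells the difference was 1.05 ± 0.37 (BH-adjusted p = 0.339).

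The remaining 3 genes had smaller differences. Ptprc, the phosphatase CD45 found on white blood cells of every lineage, read 5.36, 4.77 and 4.38 in WT and 4.92, 5.93 and 5.55 in K14ΔNLef1 CD34+ITGA6+ cells, and 4.98, 4.49 and 4.48 against 4.84, 5.83 and 4.58 in ITGA6+ cells. The groups overlapped in both populations, and the differences of 0.63 ± 0.35 and 0.44 ± 0.35 had adjusted p of 0.699 and 0.756. Csf1r, the receptor for CSF1 and interleukin 34, spanned only 0.59 log2 units over the 12 arrays, from 6.23 to 6.82, and differed by 0.23 ± 0.17 and 0.13 ± 0.17 between genotypes. Cd207 encodes langerin, the lectin that defines Langerhans cells. It ranged from 5.45 to 6.58 in CD34+ITGA6+ cells and from 6.0 to 6.15 in ITGA6+ cells of both genotypes. Its genotype difference was 0.14 (95% interval from -0.41 to 0.69) in CD34+ITGA6+ cells and 0.01 (from -0.54 to 0.55) in ITGA6+ cells. All Cd207 readings lay under the array median, so these intervals describe the signal of the probe sets and set no limit on the transcript.

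By limma, 0 of the 3 genes tested were called between genotypes in CD34+ITGA6+ cells, where 1.91% of the 5712 genes tested were called, and 0 of 3 in ITGA6+ cells, where 5.3% were. With no filter, 0 of the 8 genes were called in CD34+ITGA6+ cells (1.14% of all genes) and 1 of 8, Alox5ap, in ITGA6+ cells (2.88% of all genes). At an unadjusted p under 0.05 the count was 4 of 8 and 3 of 8, against 8.65% and 12.1% of all genes. All 8 differences were above 0 in both populations, with medians of 0.96 and 0.98, while 47.0% and 47.7% of all genes were above 0 and their medians were -0.02 and -0.01. When each gene was read from its brightest probe set, 5 and 6 of the 8 were above 0, with H2-Aa (-0.09), Cd207 (-0.03) and Ptprc (-0.03) below it in CD34+ITGA6+ cells and H2-Aa (-0.11) and Csf1r (-0.26) in ITGA6+ cells. Genotypes did not overlap, with K14ΔNLef1 higher, for 3 of 8 genes in CD34+ITGA6+ cells (Cd74, Tyrobp and Csf1r) and 3 of 8 in ITGA6+ cells (Cd74, Tyrobp and Alox5ap). Over all genes this share was 5.01% and 8.45%. Because the 8 genes share arrays and, as described next, vary together, they do not count as 8 separate observations of a genotype effect. Both populations may likewise not be separate observations. The sources used here do not say whether same-numbered sorts came from the same mice.

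**Figure D2:**
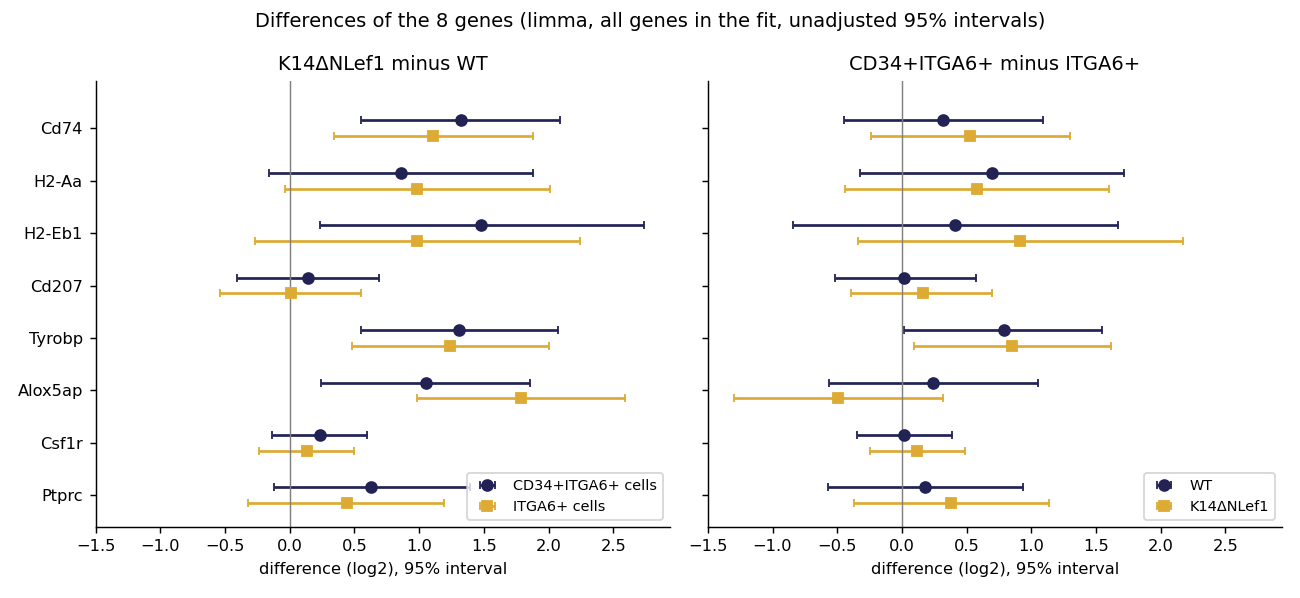
Differences of the 8 genes in log2 units (x axis) with unadjusted 95% intervals from the limma fit to all genes, for K14ΔNLef1 minus WT in each population (left) and CD34+ITGA6+ minus ITGA6+ in each genotype (right). Genotype differences, from the median over probe sets, are above 0 for all 8 genes in both populations, from 0.01 for Cd207 to 1.79 for Alox5ap in ITGA6+ cells, and population differences run from -0.49 to 0.91.

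Arrays of the same K14ΔNLef1 group differed from each other by amounts like those between genotypes, for Cd74 by up to 0.89 in CD34+ITGA6+ and 1.23 in ITGA6+ cells. All 8 genes had K14ΔNLef1 CD34+ITGA6+ replicates 2 and 3 among their 4 highest arrays, whereas for replicate 1 of that group this held for 2 genes. In K14ΔNLef1 ITGA6+ cells the counts were 0 for replicate 1, 6 for replicate 2 and 3 for replicate 3, and among WT arrays CD34+ITGA6+ replicate 1 had the most, 3. The mean level of the 8 genes was 6.64, 7.52 and 7.35 on the K14ΔNLef1 CD34+ITGA6+ arrays and 6.26, 7.14 and 6.97 on the K14ΔNLef1 ITGA6+ arrays, while WT arrays lay between 5.86 and 6.84. The median of all probe sets did not move with this, at 7.51, 7.36 and 7.43 on the former 3 arrays and 7.52, 7.50 and 7.51 on the latter.

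The same order was seen in single probe sets. Of the 91 probe sets of the 8 genes, 76.9% had K14ΔNLef1 CD34+ITGA6+ replicate 2 among their 4 highest arrays, against 23.9% of all probe sets in the table. For replicate 3 of that group the share was 57.1% (26.8% of all probe sets) and for replicate 1 it was 27.5% (35.1%). In K14ΔNLef1 ITGA6+ cells replicate 2 reached 50.5% (32.7%), replicate 3 37.4% (34.4%) and replicate 1 29.7% (36.4%). In bulk RNA such as this, fewer cells of a type and less RNA per cell cannot be told apart.

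**Figure D3:**
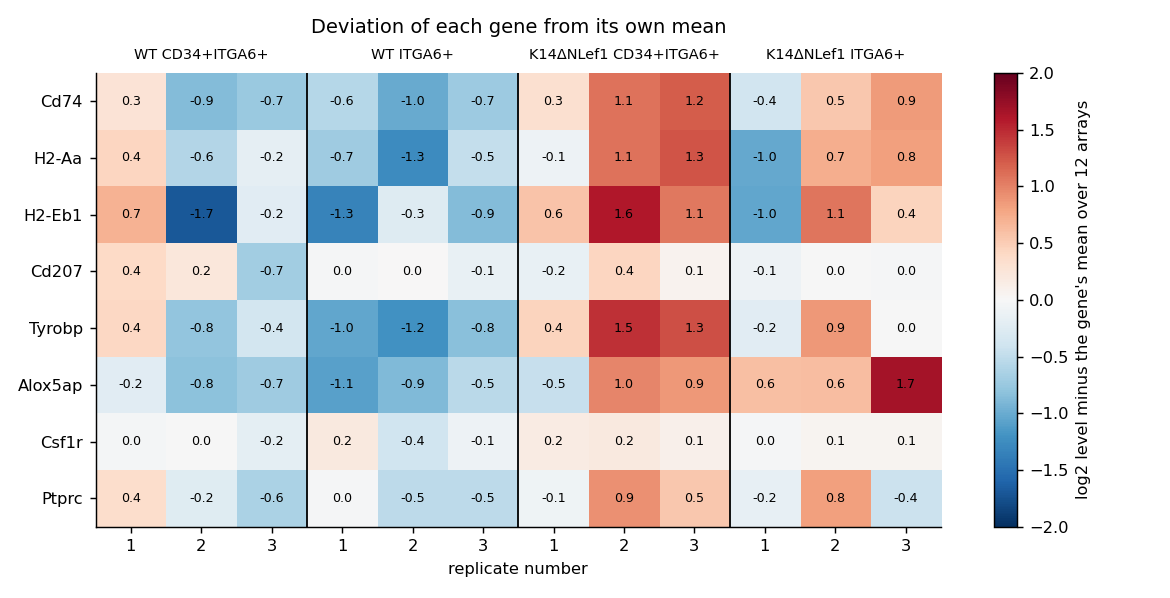
Log2 level of each gene (rows) on each array (columns, by group and replicate number) minus the mean of that gene over the 12 arrays, with red above and blue below it. Replicates 2 and 3 of K14ΔNLef1 CD34+ITGA6+ cells are above the mean for all 8 genes, and the rows of Cd207 and Csf1r are pale throughout.

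The class II genes and Tyrobp varied together over the 12 arrays. Cd74 correlated with H2-Aa at r = 0.92, with Tyrobp at 0.91 and with H2-Eb1 at 0.85, and the first pair had r = 0.93 after the group means were taken out. Alox5ap correlated with Cd74 at 0.82 but with H2-Eb1 at 0.62, and Ptprc was closest to Tyrobp, at 0.83. Cd207 stood apart, with r from 0.27 to 0.62 against the other 7 genes, and Csf1r reached 0.28 to 0.63. These values describe 12 arrays that share 4 groups and 1 normalisation.

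Among the 5709 genes tested besides H2-Aa, H2-Eb1 and Tyrobp, those whose levels followed the marker genes most closely included 1 further class II gene. H2-DMa, a chain of the molecule that loads peptides onto class II, was first for H2-Eb1, with r = 0.85. Eno3, muscle enolase, was first for Cd74 (0.86), H2-Aa (0.86) and Tyrobp (0.91), within a narrow range of 7.0 to 7.83. Nfe2l3 was first for Alox5ap (0.89), Ccdc88c for Ptprc (0.88), Ccdc9 for Cd207 (0.88) and Kcna3 for Csf1r (0.84). With 5709 genes searched over 12 arrays, the highest r is large by construction.

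Probe sets of 1 gene did not all behave alike. H2-Aa had 5, of which 4 differed between genotypes, in CD34+ITGA6+ cells by 1.07 to 1.82 and in ITGA6+ cells by 0.98 to 1.88. The fifth was the brightest, with a mean of 8.30, and was flat, with values of 7.80 to 8.53 on all 12 arrays. Cd74 had 10 probe sets, of which 3 were above the array median on all 12 arrays. The brightest, with a mean of 9.33, differed between genotypes by 0.85 in CD34+ITGA6+ and 0.48 in ITGA6+ cells, and another, with a mean of 8.38, was flat, at 0.13 and -0.09. The third, with a mean of 8.57, differed by 1.15 and 1.25. It read 8.77, 7.80 and 7.70 in WT CD34+ITGA6+ cells and 7.98, 10.03 and 9.71 in K14ΔNLef1. It was highest on the same 4 arrays as the gene median, replicates 2 and 3 of both K14ΔNLef1 groups. In CD34+ITGA6+ cells all 10 Cd74 probe sets were above 0 and 5 were at 1 or more, and in ITGA6+ cells the counts were 9 and 3.

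All 5 probe sets of Tyrobp were above 0 in both populations, from 0.81 to 1.54 in CD34+ITGA6+ and from 0.48 to 2.09 in ITGA6+ cells, as were the 5 of H2-Eb1, from 0.25 to 1.88 and from 0.11 to 1.24. Alox5ap rested on few probe sets. In ITGA6+ cells 2 of its 6 differed by 3.03 and 2.48 and the other 4 by -0.10 to 0.91, and its brightest, with a mean of 8.22, differed by 0.24. Ptprc had 35 probe sets, and the 2 brightest, both with a mean of 9.0, differed by -0.07 and -0.03 in CD34+ITGA6+ cells. There, 7 others differed by 1 log2 unit or more, up to 2.54, as did 4 in ITGA6+ cells. None of the 7 Cd207 probe sets differed by more than 0.49, and 0 of them lay above the array median on 3 or more arrays. Whether the flat probe sets hybridised to other transcripts, or the class II probe sets to related class II genes, was not tested.

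**Figure D4:**
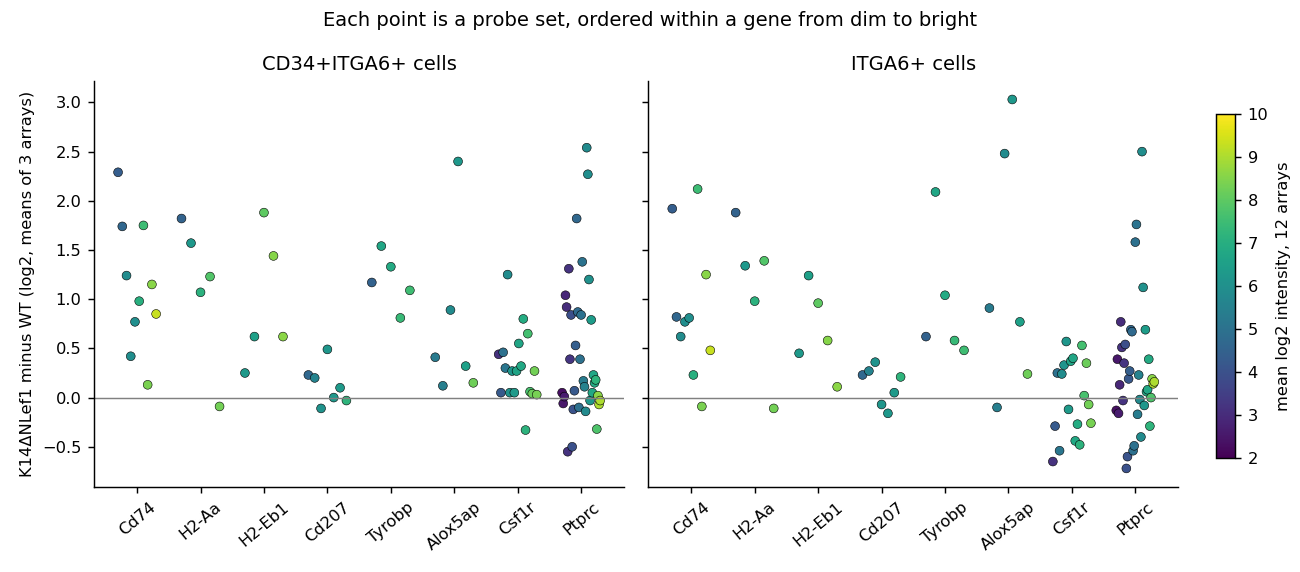
K14ΔNLef1 minus WT in log2 units (y axis, means of 3 arrays) for each probe set of the 8 genes (x axis) in both populations, ordered from dim to bright within a gene and coloured by mean log2 intensity. The brightest probe sets of H2-Aa, Alox5ap and Ptprc lie near 0, while dimmer ones reach 1.88, 3.03 and 2.54.

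Between the populations the median difference of the 8 genes was 0.28 in WT and 0.46 in K14ΔNLef1 mice, where all 8 and 7 of 8 were above 0 (41.3% and 40.8% of all genes). CD34+ITGA6+ cells exceeded ITGA6+ cells by 0.79 ± 0.35 for Tyrobp in WT (limma adjusted p = 0.148) and by 0.85 ± 0.35 in K14ΔNLef1 mice (BH-adjusted p = 0.132), and the 3 class II genes differed by 0.32 to 0.70 in WT and by 0.53 to 0.91 in K14ΔNLef1. Alox5ap differed by -0.49 ± 0.37 in K14ΔNLef1, with ITGA6+ cells higher. Of the 3 genes tested, 0 were called in WT, where 17.2% of genes were called, and 0 in K14ΔNLef1, where 12.9% were. With no filter it was 0 of 8 in both, against 9.57% and 6.88%, and 1 of 8 in each had an unadjusted p under 0.05. Leaving out K14ΔNLef1 CD34+ITGA6+ replicate 1 brought Tyrobp to 1.17 in that genotype. Its limma adjusted p was then 0.0488 among the filtered genes, where Tyrobp stood through K14ΔNLef1 arrays alone. Among all genes it was 0.0823, not past the threshold. These fits treat the arrays as unpaired, and fits with a replicate block within genotype are given below.

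A difference of the genotype effect between the populations was not shown for any of the 8 genes. The difference of the effects ran from -0.74 for Alox5ap (95% interval from -1.88 to 0.41) to 0.50 for H2-Eb1 (from -1.23 to 2.23). For Tyrobp it was 0.07 (from -0.99 to 1.13). By limma 0 of 3 genes were called, against 1.54% of those tested, and with no filter 0 of 8, against 0.673%, and 0 of 8 had an unadjusted p under 0.05. The narrowest interval was that of Csf1r, from -0.42 to 0.63.

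The genes listed for the class II pathway gave no call between genotypes. Of 24 genes listed for class II presentation 19 were measured and 10 passed the filter, and 0 were called between genotypes in either population by limma, with 2 of 10 at an unadjusted p under 0.05 in each. The median difference of the 19 was 0.03 in CD34+ITGA6+ and -0.04 in ITGA6+ cells, and 12 and 9 of them were above 0. H2-DMa differed by 0.93 and 0.31. Ciita, the co-activator without which class II genes stay silent, lay between 5.85 and 6.37 on all arrays and differed by -0.05 and 0.28, and Rfx5, a subunit of the factor that binds the X box, differed by 0.11 and -0.04. Ciita and Rfx5 were named for their role. Lgmn, a lysosomal protease of antigen processing, was the 1 gene of the list called in any comparison, higher by 1.12 ± 0.30 in WT CD34+ITGA6+ than in WT ITGA6+ cells (BH-adjusted p = 0.0204). That call was lost without WT CD34+ITGA6+ replicate 1 or 3 or WT ITGA6+ replicate 1 or 2, with values of 0.90 to 1.09, and with the brightest probe set the value was 0.20.

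Genes of MHC class I presentation and the interferon γ receptors were called between populations. Of 15 class I genes measured 14 were tested, and 0 were called between genotypes by limma (0 and 2 at an unadjusted p under 0.05 in CD34+ITGA6+ and ITGA6+ cells), while 3 were lower in WT CD34+ITGA6+ than in WT ITGA6+ cells. These were the immunoproteasome subunits Psmb8 (-1.46 ± 0.23, adjusted p = 0.000377) and Psmb9 (-1.50 ± 0.28, adjusted p = 0.00173) and the peptide-trimming protease Erap1 (-1.17 ± 0.20, adjusted p = 0.00101). The Erap1 call was lost with the brightest probe set, at -0.68 with an adjusted p of 0.107. Erap1 was also lower in CD34+ITGA6+ cells of K14ΔNLef1 mice, by 0.78 ± 0.20 (BH-adjusted p = 0.021), and this call was lost with the brightest probe set and in 4 fits that each left out 1 array, with values of -0.38 to -0.79. The receptor chain gene Ifngr1 was lower in CD34+ITGA6+ cells by 2.31 ± 0.25 log2 units in WT (BH-adjusted p = 1.58e-05) and by 1.17 ± 0.25 in K14ΔNLef1 (BH-adjusted p = 0.00615). In ITGA6+ cells Ifngr1 fell by 1.15 ± 0.25 in K14ΔNLef1 (BH-adjusted p = 0.0135), a call lost when WT replicate 2 or 3 or K14ΔNLef1 replicate 2 or 3 was left out, with values of -0.99 to -1.08. With the brightest probe set Ifngr1 lost this call, at -0.79, and the population call in K14ΔNLef1, at -0.93. Ifngr2 was lower by 0.80 ± 0.23 in WT CD34+ITGA6+ than in WT ITGA6+ cells (BH-adjusted p = 0.0281), a call that 9 of the alternatives ended, among them each removal of a WT array but 1. Of the 15 genes of the interferon γ list that were measured 5 were tested, and apart from both receptor chains 0 were called.

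The ligand gene of the CSF1 receptor was called where the receptor was not. Il34, which encodes interleukin 34, read 9.11, 8.97 and 9.14 in WT ITGA6+ cells and 7.62, 7.58 and 7.10 in K14ΔNLef1 ITGA6+ cells. These groups did not overlap, and Il34 fell by 1.64 ± 0.25 log2 units (limma adjusted p = 0.00122). In CD34+ITGA6+ cells it read 8.24, 7.82 and 8.03 in WT and 8.97, 8.15 and 7.90 in K14ΔNLef1, a difference of 0.31 ± 0.25 (BH-adjusted p = 0.812). The 2 effects differed by 1.95 ± 0.36 (BH-adjusted p = 0.0122), and the order of the populations turned, from -1.04 ± 0.25 in WT (BH-adjusted p = 0.0103) to 0.90 ± 0.25 in K14ΔNLef1 (BH-adjusted p = 0.0308). The value in K14ΔNLef1 lost its call when any 1 of its arrays but CD34+ITGA6+ replicate 3 was left out, with values of 0.59 to 1.0. With the brightest probe set the value in WT was -0.82 and lost its call (BH-adjusted p = 0.233). Csf1, the other ligand of the receptor, was not tested and read 6.37, 7.43, 6.97 and 7.10 on average in WT CD34+ITGA6+, K14ΔNLef1 CD34+ITGA6+, WT ITGA6+ and K14ΔNLef1 ITGA6+ cells. Of 11 genes of the CSF1 receptor axis measured 6 were tested, and besides Il34 only Tgfb1 was called, lower by 0.87 ± 0.24 in WT CD34+ITGA6+ than in WT ITGA6+ cells (BH-adjusted p = 0.0232). The Tgfb1 call was lost without WT CD34+ITGA6+ replicate 1 or 2 or WT ITGA6+ replicate 2 or 3.

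**Figure D5:**
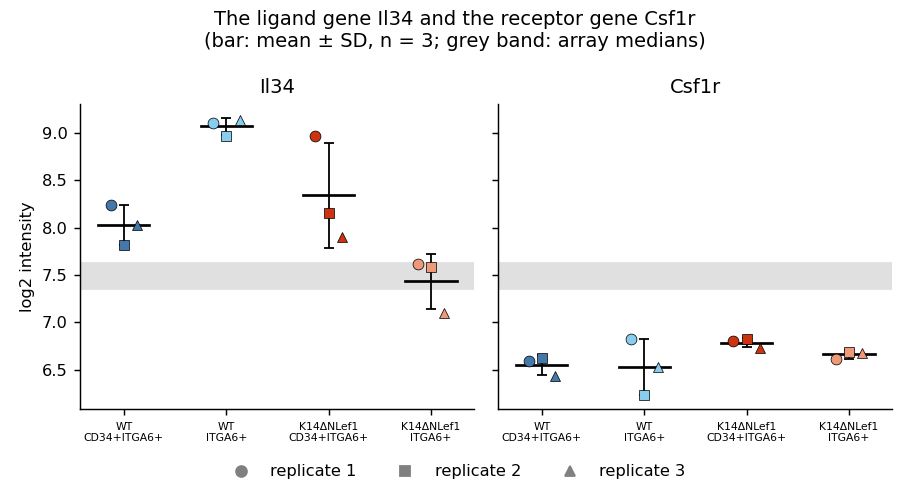
Log2 intensity (y axis) of the ligand gene Il34 and the receptor gene Csf1r on each array, by group (x axis), with replicates as symbols, the mean ± SD (n = 3) as bars and the array medians as a grey band. Il34 falls from a mean of 9.07 in WT to 7.44 in K14ΔNLef1 ITGA6+ cells, while Csf1r stays between 6.23 and 6.82.

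Among the leukotriene and lipoxygenase genes tested, 2 receptors were called. Ltb4r1, a receptor for leukotriene B4, fell by 1.31 ± 0.27 in K14ΔNLef1 CD34+ITGA6+ cells (BH-adjusted p = 0.0203), a call lost without WT replicate 1 or 3 or K14ΔNLef1 replicate 2 or 3, with values of -1.16 to -1.24, and with the brightest probe set the value was -0.41. It was lost as well when only the groups compared entered the fit (BH-adjusted p = 0.0612). In K14ΔNLef1 mice it was also lower in CD34+ITGA6+ than in ITGA6+ cells, by 1.05 ± 0.27 (BH-adjusted p = 0.0211), a call lost without CD34+ITGA6+ replicate 2 or 3 or ITGA6+ replicate 3 and with the brightest probe set, at -0.36. Cysltr1, a receptor for cysteinyl leukotrienes, averaged 4.95 in WT CD34+ITGA6+ and 7.97 in WT ITGA6+ cells and differed between populations by -3.02 ± 0.25 in WT (BH-adjusted p = 1.65e-06) and by -2.74 ± 0.25 in K14ΔNLef1 (BH-adjusted p = 4.68e-06). Alox5, the 5-lipoxygenase that FLAP serves, was not tested and averaged 5.34 to 5.59 in the 4 groups. Of 14 genes of this list measured 5 were tested, and no others of the 5 were called. In the fit with no filter, Aloxe3, a lipoxygenase of the epidermal barrier, fell by 1.18 ± 0.24 in K14ΔNLef1 ITGA6+ cells (BH-adjusted p = 0.0144).

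Most genes that act with Tyrobp and Ptprc were too dim to be tested. Of 11 genes of DAP12 and ITAM signalling measured 2 were tested, 1 of them Tyrobp, and 0 were called by limma in any comparison, with an unadjusted p under 0.05 between genotypes for 2 in CD34+ITGA6+ and 1 in ITGA6+ cells and between populations for 1 in each genotype. Of that pathway, Syk, the kinase that DAP12 recruits, averaged 6.30 to 6.56. Of 10 genes around CD45 and the Src kinases 4 were tested. Fyn, a Src family kinase also made by keratinocytes, was higher in the CD34+ITGA6+ than in the ITGA6+ sort by 2.70 ± 0.33 in WT (BH-adjusted p = 5.13e-05) and by 1.07 ± 0.33 in K14ΔNLef1 (BH-adjusted p = 0.0468), the latter a call lost with no filter (BH-adjusted p = 0.0762), with the brightest probe set, at 0.67, and in 10 of the 12 fits that each left out 1 array.

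Most other markers of Langerhans cells, myeloid cells and leukocytes were dim. Of 25 Langerhans cell markers measured 18 were under the array median on all 12 arrays, as were 22 of 27 myeloid and 18 of 20 pan-leukocyte markers. Defining markers among them were Itgax (5.69 to 6.39), Spi1 (5.01 to 6.14), Adgre1 (4.57 to 5.77), Itgam (5.78 to 6.27) and Laptm5 (5.87 to 7.01), named for their role. The mean log2 level of the Langerhans list was 6.39 to 6.61 in WT and 6.54 to 6.57 in K14ΔNLef1 CD34+ITGA6+ cells, and 6.50 to 6.55 and 6.35 to 6.42 in ITGA6+ cells. For the myeloid list it was 6.06 to 6.35 and 6.29 to 6.54, then 6.19 to 6.30 and 6.31 to 6.38, and for the pan-leukocyte list 5.95 to 6.26 and 6.18 to 6.31, then 6.19 to 6.32 and 6.12 to 6.28. The median genotype difference of the Langerhans list was 0.15 in CD34+ITGA6+ and 0.01 in ITGA6+ cells, that of the myeloid list 0.12 and -0.01, and that of the pan-leukocyte list 0.08 and 0.01. The lists hold Tyrobp, Cd207, Csf1r, Alox5ap and Ptprc themselves. The part of Langerhans or other leukocytes in the levels of the 8 genes was not tested.

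Several genes called within these lists can also be made by keratinocytes, and which cells made them here was not tested. Arhgdib averaged 11.47 in WT ITGA6+ and 8.38 in WT CD34+ITGA6+ cells, a population difference of -3.08 ± 0.22 (BH-adjusted p = 5.2e-07), and -2.28 ± 0.22 in K14ΔNLef1 (BH-adjusted p = 7.36e-06). Il1r2, the decoy receptor of interleukin 1, fell in K14ΔNLef1 by 2.26 ± 0.27 in CD34+ITGA6+ (BH-adjusted p = 0.000226) and by 4.06 ± 0.27 in ITGA6+ cells (BH-adjusted p = 5.45e-07). Id2 and Mfge8 were higher in CD34+ITGA6+ cells in both genotypes, by 1.99 ± 0.24 and 1.35 ± 0.21 in WT. Mfge8 lost both calls with the brightest probe set, at 0.62 in WT (BH-adjusted p = 0.237) and 0.84 in K14ΔNLef1 (BH-adjusted p = 0.125). Pycard, the inflammasome adaptor ASC, was lower there by 1.03 ± 0.22 in WT (BH-adjusted p = 0.0037). In the fit with no filter, Ctsc, a protease that activates granule enzymes of leukocytes, rose by 1.51 ± 0.29 in K14ΔNLef1 CD34+ITGA6+ cells (BH-adjusted p = 0.0263), and Ptpn22, a phosphatase of lymphocytes, by 1.33 ± 0.31 in K14ΔNLef1 ITGA6+ cells (BH-adjusted p = 0.0315). Between populations in WT, CD34+ITGA6+ cells were lower for Ctsc, with a difference of -1.85 ± 0.29 (BH-adjusted p = 0.00102), and for the dendritic cell marker Cd83, with -1.05 ± 0.26 (BH-adjusted p = 0.0219). In K14ΔNLef1 they were lower for the interferon-induced GTPase gene Ifi47, with -1.62 ± 0.33 (BH-adjusted p = 0.00982), and higher for Coro1a, an actin-binding protein of leukocytes, with 1.12 ± 0.20 (BH-adjusted p = 0.00325). With Alox5ap and Aloxe3 these were the calls of list genes under the filter, and they were added after their values were seen.

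Markers of other cells that a sort of epidermis can hold were measured in the same way. Of 17 T cell markers 16 were under the array median on all arrays, and the 1 tested, Thy1, was lower in K14ΔNLef1 than in WT ITGA6+ cells by 1.26 ± 0.24 (BH-adjusted p = 0.00604), with a value of -0.03 from its brightest probe set. Of 10 mast cell, granulocyte and B cell markers 7 were under the median throughout, as were 6 of 8 endothelial and 4 of 6 Merkel cell markers, and 0 genes of these 3 lists were tested. Among melanocyte markers, 7 of 9 were under the median, and Mitf was higher in CD34+ITGA6+ cells by 2.57 ± 0.23 in WT (BH-adjusted p = 2.84e-06) and by 2.70 ± 0.23 in K14ΔNLef1 (BH-adjusted p = 2.45e-06), where the brightest probe set gave 1.10 and no call (BH-adjusted p = 0.143). Of 10 fibroblast markers 5 were tested. In WT, 3 of them were called between populations, all higher in CD34+ITGA6+ cells. These were Fbln1 (2.37 ± 0.27, BH-adjusted p = 2.21e-05), Sparc (2.08 ± 0.27, BH-adjusted p = 7.48e-05) and Col1a2 (0.71 ± 0.17, BH-adjusted p = 0.01). In K14ΔNLef1 only Col1a2 was called, higher by 0.62 ± 0.17 (BH-adjusted p = 0.0293). Col1a2 lost both calls with the brightest probe set, at 0.12 and 0.22. The matrix gene Sparc fell in K14ΔNLef1 CD34+ITGA6+ cells by 1.34 ± 0.27 (BH-adjusted p = 0.0143) and rose in K14ΔNLef1 ITGA6+ cells by 1.32 ± 0.27 (BH-adjusted p = 0.0082), and Fbln1 rose in the latter by 1.61 ± 0.27 (BH-adjusted p = 0.00194). The Sparc call in CD34+ITGA6+ cells was lost without WT replicate 1 or K14ΔNLef1 replicate 3, with only the groups compared (BH-adjusted p = 0.0576) and with the brightest probe set, at -1.0 (BH-adjusted p = 0.0988).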

How the data were processed

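The deposited table holds 1 intensity per probe set and array on a linear scale, made by the authors with robust multi-array average (RMA) normalisation. Affymetrix Power Tools, RMA and the build mm9 are named, without versions, in the submitters' processing notes. RMA scales arrays to each other, which partly removes shifts shared by most genes, and the RNA was amplified before labelling. The sources used here do not say how the 114330 probe sets were selected. Their log2 was taken. Probe sets with 1 gene symbol in the platform annotation (109796, 96.0%) were used, and those with several (836) or none (3698) were left out. Against the RefSeq table of GRCm38.p6, 10030 symbols were current, 1240 older ones were updated and 27 were kept. The median over a gene's probe sets (8 for the median gene) was its value.

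Limma 3.58.1 in R 4.3.3 fitted a mean per group to the 12 arrays (8 residual degrees of freedom before moderation). Genes above the array median on at least 3 arrays (5712) were tested, two-sided, with Benjamini-Hochberg adjustment and a threshold of 0.05. There were 5 comparisons: K14ΔNLef1 minus WT within each population (genotype), CD34+ITGA6+ minus ITGA6+ within each genotype (population), and the first of these in CD34+ITGA6+ cells minus the same in ITGA6+ cells (difference of effects). Errors are SE unless named SD. The fit was tested on simulated data. Alternatives were 2 other scalings, 2 other summaries over probe sets, no filter and a stricter one, a trend in the variance, a replicate block (over all groups or within genotype), the compared groups alone and each array left out. Arrays of a group correlated at r of 0.909 to 0.936, and the labels name no batch. P-values measure the spread between arrays labelled biological replicates.

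Besides the 8 genes and the check genes Lef1, Cd34 and Itga6, the genes named were those called in a set of 17 lists, at most 5 per list and comparison by adjusted p, the genes most like each member over the arrays, and those said to be named for their role. Not every call of a named gene is given. The genes and lists were chosen with earlier results of these data known.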

Additional observations from a re-analysis of the deposited data

Results flagged for a closer look

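The genotype effect differed between the populations for 4 genes of the lists around the 8 markers, by the difference of the effects in limma (CD34+ITGA6+ minus ITGA6+). Il34, the ligand of the receptor encoded by Csf1r, had a value of 1.95 ± 0.36 (SE, adjusted p = 0.0122), and it passed the threshold in every alternative that kept the filter but the brightest probe set, where it was 2.52 with an adjusted p of 0.0639. For Il1r2 the value was 1.79 ± 0.38 (adjusted p = 0.0259), with a fall in both populations. It averaged 7.48 in WT and 5.22 in K14ΔNLef1 CD34+ITGA6+ cells, and 10.69 and 6.63 in ITGA6+ cells. Both K14ΔNLef1 means lay under all array medians. Since no background was measured, a fall cut short by it cannot be told from a smaller fall. Il1r2 lost the call with no filter, with the brightest probe set and in 7 of the 12 fits that each left out 1 array. The fibroblast-listed genes Sparc, at -2.66 ± 0.38 (adjusted p = 0.00147), and Fbln1, at -1.85 ± 0.38 (adjusted p = 0.0209), had the other sign, and Fbln1 lost the call in 5 of those 12 fits and with a replicate block within genotype.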

How the results depend on the processing

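Of the 8 genes, of which 3 passed the filter, the number called between genotypes in ITGA6+ cells went from 0 to 1 (Tyrobp) with median centring or only the groups compared, and to 1 (Alox5ap) with no filter, also together with the replicate block, median centring, quantile normalization or the mean over probe sets. It stayed at 0 with quantile normalization, the brightest probe set or a trend in the variance. It was also 0 with the mean over probe sets and with a stricter filter. Tyrobp did not pass the filter in either of these settings, so it could not be called there. When each array was left out in turn, it ranged from 0 to 1 between genotypes in CD34+ITGA6+ cells, between genotypes in ITGA6+ cells and between populations in K14ΔNLef1 mice, and from 0 to 0 in the other comparisons. Alternatives that combine no filter with another change were added after the data were seen. The brightest probe set turned the genotype differences of H2-Aa to -0.09 and -0.11 and the WT population difference of H2-Eb1 to -0.03, and put Csf1r at -0.26 between genotypes in ITGA6+ cells and Cd207 and Ptprc at -0.03 in CD34+ITGA6+ cells. The difference of effects of H2-Aa, -0.12, became 0.02 with the mean or the brightest probe set. None of these values passed the threshold before or after, nor did those that changed sign when an array was left out: the differences of effects of H2-Aa (from -0.72 to 0.30), H2-Eb1 (from -0.14 to 1.05) and Tyrobp (from -0.21 to 0.40), the population difference of H2-Eb1 in WT (from -0.14 to 1.05) and that of H2-Aa in K14ΔNLef1 (from -0.02 to 1.0). The cause was not tested. Of 47 calls of genes in the lists, 22 were lost with the brightest probe set and 14 in at least 1 fit without an array.

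Over all genes tested, the calls between genotypes in CD34+ITGA6+ cells went from 109 to 177 with the mean over probe sets, 64 with the brightest and 70 with only the groups compared, and in ITGA6+ cells from 303 to 191 with the brightest and 196 with the stricter filter. With that filter, population calls in WT went from 982 to 618. In K14ΔNLef1 they went from 737 to 466 with the brightest probe set, and differences of effects from 88 to 149 with the mean and 38 with the brightest. With no filter as well, the mean gave 184, 495 (ITGA6+ genotype), 1515 (WT populations) and 156, and the brightest 62, 178, 447 (K14ΔNLef1 populations) and 35. Leaving out arrays gave 71 to 117, 193 to 316, 714 to 1011, 478 to 800 and 64 to 85 in the order of the comparisons, and with no filter 67 to 121, 201 to 344, 766 to 1111, 490 to 801 and 48 to 80. The labels number replicates 1 to 3 in all groups. Pooled over all groups, same-numbered arrays did not consistently deviate together (r from -0.12 to 0.21, over 0.1 in 3 of 18 pairs). Yet 9 of 12 arrays were closest to an array of the same number among those of other groups. The main fit did not take the numbers as pairs. Between the populations of 1 genotype, however, all 6 same-numbered pairs were above 0 (r from 0.08 to 0.21, over 0.1 in 2), against 1 of 12 differently numbered ones (-0.16 to 0.06). These ranges did not overlap. The sources used here do not say whether same-numbered sorts came from the same mice, and the population differences given above are unpaired. With the replicate block, 0 of the 3 genes that passed the filter were called, and 113, 293, 1024, 794 and 91 of all genes. With a replicate block within genotype, added after the data were seen, population calls of the 8 genes went from 0 to 2 in WT (H2-Aa, 0.70 with an adjusted p of 0.0411, and Tyrobp, 0.79 with 0.0495) and from 0 to 1 in K14ΔNLef1 (Tyrobp, 0.85 with 0.0451), and over all genes to 1103 and 824. H2-Aa and Tyrobp were higher in CD34+ITGA6+ cells in all 3 same-numbered pairs of each genotype. With no filter as well, the adjusted p of these 3 values was 0.0683, 0.0817 and 0.0742, and 0 of the 8 genes were called.

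With 3 arrays per group and levels near the array medians, differences of these genes under about 1 log2 unit were mostly within the spread between arrays. Larger genotype differences of the 8 genes were not called either, except that of Alox5ap in ITGA6+ cells in the fit to all genes. That call was lost with the brightest probe set. No read depth or detection call bears on these values.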
